A study of Mus musculus with 4 samples.

Results

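The epidermal kallikreins are secreted serine proteases encoded side by side in 1 gene cluster. The 10 genes described here are Klk5, Klk6, Klk7, Klk8, Klk9, Klk10, Klk11, Klk12, Klk13 and Klk14. The family was chosen by the measured values of Klk6 in these same arrays, which were known to be higher in skin lacking Bmal1, and its members were listed by name to ask whether that difference extends to the kallikreins that shed the outer skin layer. All 10 had 1 probe set each paired with a single gene, among 21789 such probe sets on the array. Whole back skin was taken from C57Bl6 mice at postnatal day 22, when hair follicles rest (telogen), at ZT22, which is 22 hours after lights on. The 2 knockout (KO) mice had both copies of Bmal1 deleted in the germline, and the 2 heterozygous (het) mice carried 1 mutant and 1 wild-type allele, so that no array came from a mouse with 2 intact copies. The germline deletion affects every cell type, and the tissue is a mixture of epidermis, hair follicles, glands, dermis, fat and muscle. Each mouse gave 1 Affymetrix whole-transcript array, and the number of arrays limits the precision of every value.

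In human epidermis KLK5, KLK7 and KLK14 cleave the proteins of corneodesmosomes, the junctions that hold cornified cells together, and so allow those cells to be shed. They are made as inactive precursors in the granular layer, are activated in a cascade in which KLK5 acts on KLK7, and are held in check by LEKTI, the inhibitor encoded by Spink5. Bmal1 (gene symbol Arntl) encodes a transcription factor that, paired with CLOCK, binds E-boxes, short DNA motifs with the core CANNTG, of which CACGTG is the canonical form.

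The promoters of the 4 members on which the comparison turns are printed first, because the deleted protein acts at such sequences. Klk6 and Klk10 had the largest differences between the genotypes, and Klk5 and Klk7 are desquamation proteases. Shown are the 250 bases before each annotated start, from RefSeq on GRCm38.p6, 5′ to 3′, with matches to CANNTG in capitals. The array annotation names no build.
Klk6, first start (chr7:43824294-43824543, + strand): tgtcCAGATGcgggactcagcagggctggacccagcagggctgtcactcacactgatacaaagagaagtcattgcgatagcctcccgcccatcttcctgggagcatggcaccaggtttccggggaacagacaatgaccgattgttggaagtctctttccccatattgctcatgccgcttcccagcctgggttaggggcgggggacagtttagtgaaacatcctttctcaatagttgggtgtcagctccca
Klk6, second start (chr7:43825200-43825449, + strand): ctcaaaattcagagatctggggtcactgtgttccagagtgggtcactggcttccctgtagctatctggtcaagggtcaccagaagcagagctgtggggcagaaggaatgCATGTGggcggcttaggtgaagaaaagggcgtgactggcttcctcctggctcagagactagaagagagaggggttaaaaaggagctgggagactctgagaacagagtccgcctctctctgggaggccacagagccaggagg
Klk10 (chr7:43780804-43781053, + strand): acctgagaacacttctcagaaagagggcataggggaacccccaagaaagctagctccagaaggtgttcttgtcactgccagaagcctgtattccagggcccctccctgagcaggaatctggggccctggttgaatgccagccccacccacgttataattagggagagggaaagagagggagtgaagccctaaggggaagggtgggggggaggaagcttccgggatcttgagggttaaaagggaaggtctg
Klk5 (chr7:43842019-43842268, + strand): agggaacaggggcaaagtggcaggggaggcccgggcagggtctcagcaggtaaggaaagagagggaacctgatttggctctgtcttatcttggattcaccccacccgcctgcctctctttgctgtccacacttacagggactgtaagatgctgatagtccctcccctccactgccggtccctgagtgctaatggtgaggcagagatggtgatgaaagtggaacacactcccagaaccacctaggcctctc
Klk7 (chr7:43811044-43811293, + strand): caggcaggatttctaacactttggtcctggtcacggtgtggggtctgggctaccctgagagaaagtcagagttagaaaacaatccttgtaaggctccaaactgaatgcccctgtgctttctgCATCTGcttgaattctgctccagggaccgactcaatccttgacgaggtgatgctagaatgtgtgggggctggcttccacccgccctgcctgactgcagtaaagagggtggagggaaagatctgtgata
All 10 genes were matched to this table by symbol, with 12 promoters between them, as Klk6 and Klk11 have 2 starts each. CACGTG was found in 0 of the 12 windows, and in 6.02% of the 32851 promoter windows of the same length in the table. CANNTG, which includes CACGTG, was found in 9 of the 12 windows, against 66.2% of all windows, with 1 match at each start of Klk6, 1 in Klk7, and 0 in Klk10, Klk5 and Klk9. Klk12 held the most, with 6. Both strands were also searched for TTANGTAA and its form TTATGTAA (D-box, 2.06% and 0.819% of all windows), AGGTCA (the core of ROR elements, 14% of all windows) and TGANTCA (AP-1, 6.75% of all windows), and 0 of the 12 windows held any of these. A match is a stretch of letters and not a measured binding site, and a window without one says nothing about sequence farther away.

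Of the 10 kallikreins, Klk6 and Klk10 were higher in both KO arrays than in both het arrays, by 1.35 and 0.84 on average. The desquamation proteases Klk5, Klk7 and Klk14 differed by -0.27, 0.09 and -0.15. All values are log2 array values after quantile normalization, which gives the 4 arrays 1 common distribution, and differences are KO minus het. In bulk skin, a change in the number of cells that make a transcript and a change in its amount per cell cannot be told apart. The family was chosen with this comparison known, so the values are a description. They are set beside the 16341 probe sets that entered the fit, that is, those paired with 1 gene and above the 25th percentile of mean level. Of these 16341, 54.2% had a higher mean in KO and 45.8% a lower one. An adjusted p under 0.05 in the limma fit, called passing below, was reached by 1.98%. The counts for all lists are to be read beside these shares.

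**Figure D1:**
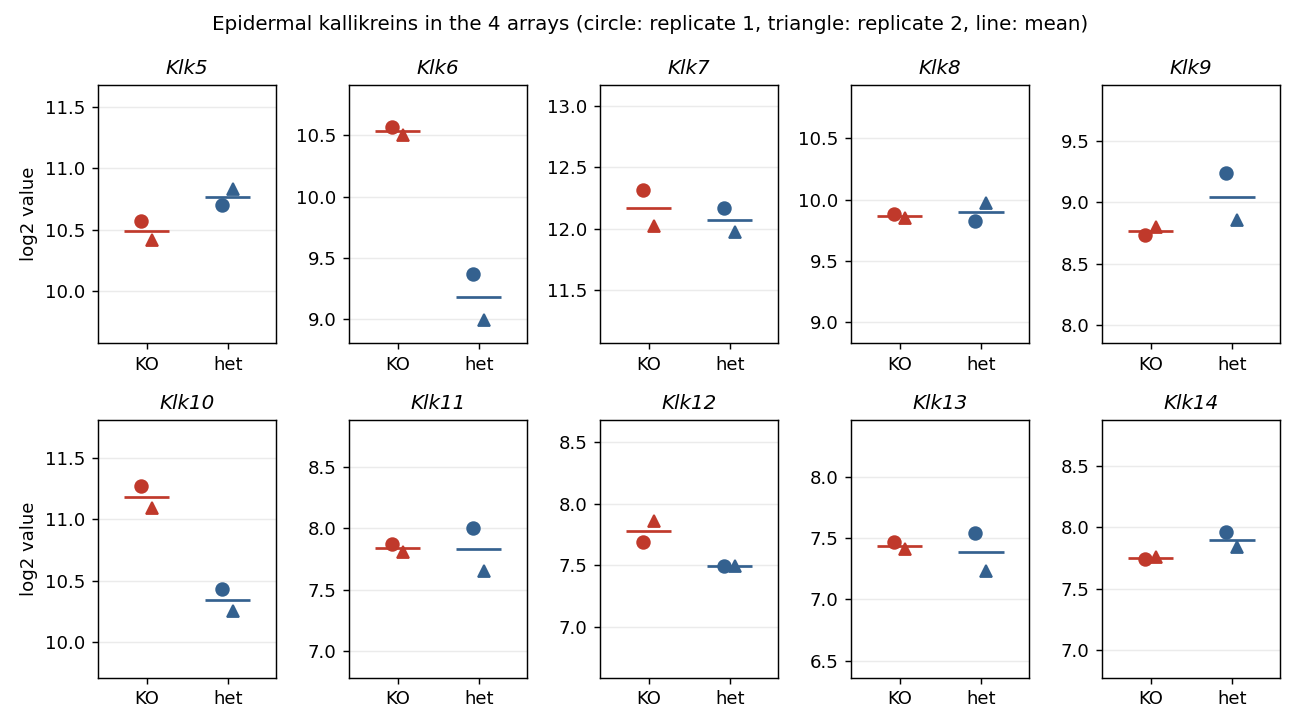
Log2 values of each epidermal kallikrein in the KO arrays (red, left) and the het arrays (blue, right). Circles are replicate 1, triangles replicate 2 and lines the mean of 2 arrays, and every panel spans the same height. The KO arrays of Klk6, at 10.57 and 10.50, and of Klk10, at 11.27 and 11.09, lie well above the het arrays, and the other 8 panels show smaller gaps.

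Klk6 encodes a trypsin-like kallikrein that is also known from the nervous system. Its probe set read 10.57 and 10.50 in the KO arrays, against 9.37 and 8.996 in the het arrays. Both KO arrays stood more than 1 log2 unit above both het arrays, and the KO arrays lay closer together than the het arrays. That closeness is not particular to Klk6. Over all tested probe sets the KO arrays correlated at 0.988 and the het arrays at 0.982. The means were 10.53 ± 0.04 in KO and 9.18 ± 0.27 in het (SD, n = 2 each), a difference of 1.35 (limma SE 0.14), or 2.55-fold. With single arrays left out, the difference ran from 1.16 (without het replicate 2) to 1.54 (without het replicate 1).

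Klk10 encodes a kallikrein expressed in many epithelia. Its probe set read 11.27 and 11.09 in the KO arrays, against 10.43 and 10.25 in the het arrays. The groups did not overlap, and replicate 1 was above replicate 2 by 0.18 in both genotypes. The means were 11.18 ± 0.12 in KO and 10.34 ± 0.12 in het (SD, n = 2 each), a difference of 0.84 (limma SE 0.12), or 1.79-fold. Leaving out single arrays gave 0.75 to 0.92.

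Among all tested probe sets, the difference of Klk6 lay at percentile 99.9 and that of Klk10 at percentile 99.3. In the limma fit over all 16341 probe sets, 2 of the 10 kallikreins, Klk6 and Klk10, had an adjusted p under 0.05, where 1.98% of all tested probe sets did. Nothing is read from this count, since the comparison was known when the family was chosen. The count was 0 of 10 when the probe sets paired with several genes also entered the fit, as it was for the whole array. Klk10 also missed the threshold without KO replicate 1.

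Klk5, the trypsin-like protease placed at the head of the desquamation cascade, was slightly lower in KO. It read 10.57 and 10.41 in the KO arrays, against 10.70 and 10.83 in the het arrays. The groups did not overlap, but the gap between the nearest arrays of the 2 genotypes was smaller than the gap of 0.15 between the KO arrays themselves. The difference was -0.27 (limma SE 0.12, n = 2 per genotype). It was -0.17 with the values as deposited and -0.14 after median centring.

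Klk7, the chymotrypsin-like enzyme of the stratum corneum, did not separate the genotypes. It read 12.31 and 12.02 in the KO arrays, against 12.17 and 11.98 in the het arrays. The ranges overlapped, and in both genotypes replicate 1 was higher, by 0.29 in KO and 0.19 in het. The difference was 0.09 (limma SE 0.14), and its sign turned without KO replicate 1 (-0.05).

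Klk14, a trypsin-like protease that in human skin accounts for part of the desquamation activity, read 7.74 and 7.76 in the KO arrays, against 7.96 and 7.84 in the het arrays. Both KO arrays were below both het arrays by a small margin. The difference was -0.15 (limma SE 0.12), with a range of -0.21 to -0.08 when single arrays were left out. Klk5, Klk7 and Klk14 thus had a median difference of -0.15, which is the value of Klk14 itself, against 0.02 for all tested probe sets. In the limma fit 0 of the 3 had an adjusted p under 0.05.

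Klk8, known as neuropsin and expressed in mouse epidermis and hippocampus, read 9.89 and 9.85 in the KO arrays, against 9.83 and 9.97 in the het arrays. The KO arrays lay between the het arrays. The difference was -0.03 (limma SE 0.11), and it was 0.08 with the values as deposited and 0.11 after median centring, so that Klk8 has no settled direction.

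Klk9 read 8.73 and 8.80 in the KO arrays, against 9.24 and 8.85 in the het arrays. The KO arrays were both lower, although het replicate 2 was nearly level with them. The difference of -0.28 (limma SE 0.14) was -0.09 without het replicate 1 and -0.47 without het replicate 2. With the values as deposited the genotypes overlapped.

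Klk12 read 7.69 and 7.86 in the KO arrays, against 7.49 and 7.49 in the het arrays. Both KO arrays were higher, and the het arrays were almost equal. The difference was 0.28 (limma SE 0.12), or 1.22-fold, and ran from 0.20 to 0.37 with single arrays left out. It was the third positive difference whose groups did not overlap, after Klk6 and Klk10, and was well below both. The probe set of Klk12 has a low mean level (7.63), as does that of Klk13 (7.41). Neither entered the test with the filter at the 50th percentile. Klk14 (7.825) and Klk11 (7.83) had mean levels only slightly higher, and both entered that test.

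Klk11 read 7.87 and 7.80 in the KO arrays, against 8.003 and 7.66 in the het arrays, and Klk13 read 7.47 and 7.41 in KO, against 7.54 and 7.23 in het. In both genes the KO arrays lay inside the het range, and het replicate 1 was the highest and het replicate 2 the lowest of the 4 arrays. The differences were 0.01 for Klk11 (limma SE 0.14) and 0.05 for Klk13 (limma SE 0.14), and both turned negative without het replicate 2 (-0.16 and -0.10). Of all pairs of members, Klk11 and Klk13 had the most similar course over the 4 arrays, with a root mean square distance of 0.02 between their centred values.

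Across the family, 6 of 10 members had a higher mean in KO and 4 a lower one, where 54.2% of all tested probe sets were higher and 45.8% lower. The median difference was 0.03, against 0.02 for all tested probe sets. Both KO arrays lay above the het range in 3 members (Klk6, Klk10 and Klk12), against 27.8% of all tested probe sets, and both lay below it in 3 (Klk5, Klk9 and Klk14), against 22.1%. The genotypes did not overlap in these 6 members, against 49.8% of all tested probe sets. Nothing is read from these shares, for the reason given above. After median centring 4 members lay above and 2 below the het range, and with the values as deposited 3 lay above and 2 below.

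The members lie in the order Klk14, Klk13, Klk12, Klk11, Klk10, Klk9, Klk8, Klk7, Klk6 and Klk5 on chromosome 7, with 0 other protein-coding genes between neighbours in the GRCm38.p6 annotation. The 2 members with large differences were not neighbours. Klk6 (1.35) lies between Klk7 (0.09) and Klk5 (-0.27), and Klk10 (0.84) lies between Klk11 (0.01) and Klk9 (-0.28). Beyond Klk5, the kallikrein Klk4, known for its role in tooth enamel, read 7.29 and 7.45 in KO, against 7.66 and 7.26 in het, with overlapping groups. Among 16 other kallikreins of the locus 11 had a probe set paired with a single gene, and only Klk4 passed the filter on low values. The Klk1b genes are close copies of each other, so their probes may read more than 1 of them.

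**Figure D2:**
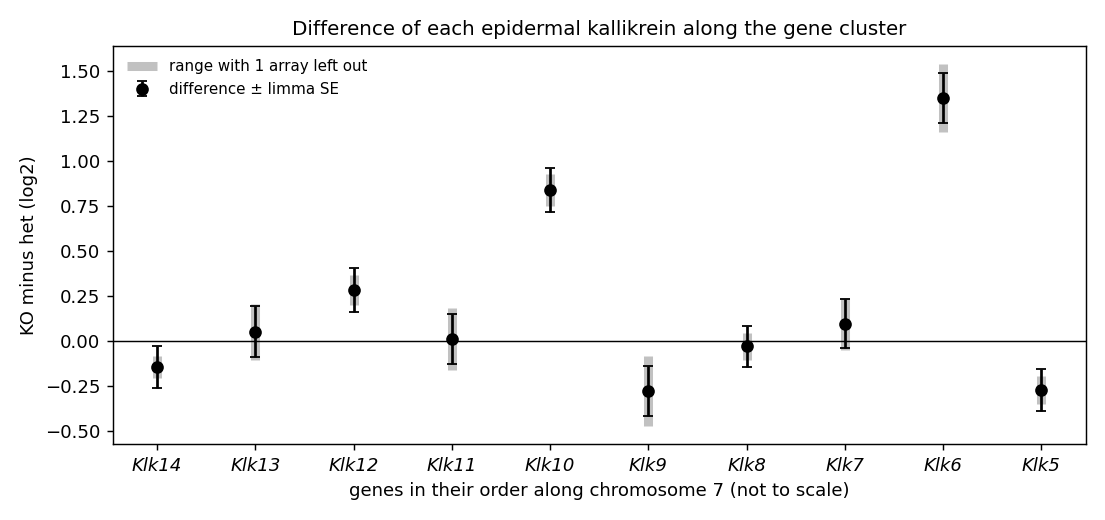
Difference of each epidermal kallikrein (log2, KO minus het) in gene order along chromosome 7, spaced evenly. Points are the differences with limma SE bars (n = 2 per genotype), and grey bars span the values with 1 array left out. Klk6 at 1.35 and Klk10 at 0.84 stand above the other 8 members, which lie between -0.28 and 0.28.

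The genes whose 4 values ran most like those of Klk6, by root mean square distance between centred values over the 4 arrays, were Cilp (distance 0.03), Hsd3b6 (0.10), Hoxa5 (0.10), Nexn (0.13) and Awat1 (0.13). Their differences between KO and het were 1.36, 1.47, 1.20, 1.12 and 1.12. For Klk5 the nearest were Cspp1, Rpl27a, A230051N06Rik, Ep300 and Rab37, at distances of 0.01 to 0.02 and differences of -0.27 to -0.24. For Klk7 they were Tmem269, Arhgef16, Cdk6, Hmcn1 and Plekhg1, at distances of 0.01, with differences of 0.09 to 0.11. Genes picked by these values have differences near that of the member by construction. The likeness rests on only 4 arrays and is a description.

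Of 10 listed proteases that can act upstream of kallikreins, or beside them at epithelial surfaces, 7 were tested. Of these, 6 had a higher mean in KO and 1 a lower one, where 54.2% of all tested probe sets were higher. The median difference was 0.17, against 0.02 for all tested probe sets. Tmprss11e, a type II transmembrane serine protease of squamous epithelia, rose in the limma fit over all tested probe sets (adjusted p = 0.0134). It was the only one of the 7 to pass, where 1.98% of all tested probe sets did. It read 7.75 and 7.67 in the KO arrays, against 6.90 and 6.79 in the het arrays. The groups were far apart compared with their own spread, with a difference of 0.87 (limma SE 0.13, n = 2 per genotype). Over the other settings its limma adjusted p ran from 0.00073 to 0.266, and it was over 0.05 in 4 of 14, among them those without KO replicate 1 (0.146) and without KO replicate 2 (0.0513).

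St14, which encodes matriptase, and Prss8, which encodes prostasin, belong to a membrane-bound protease pair that can activate kallikrein precursors. St14 read 9.81 and 9.65 in KO, against 9.60 and 9.52 in het, a difference of 0.17 (limma SE 0.11). Prss8 read 9.38 and 9.40 in KO, against 9.19 and 9.25 in het, also a difference of 0.17 (limma SE 0.11). In both genes the KO arrays lay above the het range by a small margin, and neither passed. Larger differences without a pass were read for the plasminogen activators Plau (0.35, limma SE 0.13), with both KO arrays above the het range, and Plat (0.47, limma SE 0.21), whose groups overlapped. Without het replicate 2 these differences were 0.20 and 0.08, and without het replicate 1 they were 0.50 and 0.86, where Plat passed (limma adjusted p = 0.0117).

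Of 12 listed protease inhibitors 8 were tested, and 0 passed. A higher mean in KO was read for 3 and a lower one for 5, with a median difference of -0.11. Spink5, which encodes LEKTI, read 11.41 and 11.28 in KO, against 11.26 and 11.25 in het, a difference of 0.09 (limma SE 0.11). Serping1, the C1 inhibitor, differed by -0.37 (limma SE 0.15) and Slpi, a secreted inhibitor of leukocyte proteases, by -0.20 (limma SE 0.12). Cst6 went the other way, by 0.16 (limma SE 0.11), with both KO arrays above the het range. Serpina12, which encodes vaspin, an inhibitor of KLK7, differed by -0.14 (limma SE 0.11).

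Of 14 listed substrates and receptors of these proteases 8 were tested, and 0 passed. A higher mean in KO was read for 3 and a lower one for 5, with a median difference of -0.01. Cdsn, which encodes corneodesmosin, a corneodesmosome protein cut by KLK5 and KLK7, read 11.42 and 11.33 in KO, against 11.54 and 11.23 in het. The KO arrays lay inside the het range. The smallest p in this list were those of Cela2a, a pancreatic-type elastase (-0.26, limma SE 0.13), F2r, a protease-activated receptor (0.22, limma SE 0.12), and Smpd1, acid sphingomyelinase (0.23, limma SE 0.13). F2rl1, the receptor most often linked to KLK5, was not analysed here.

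**Figure D3:**
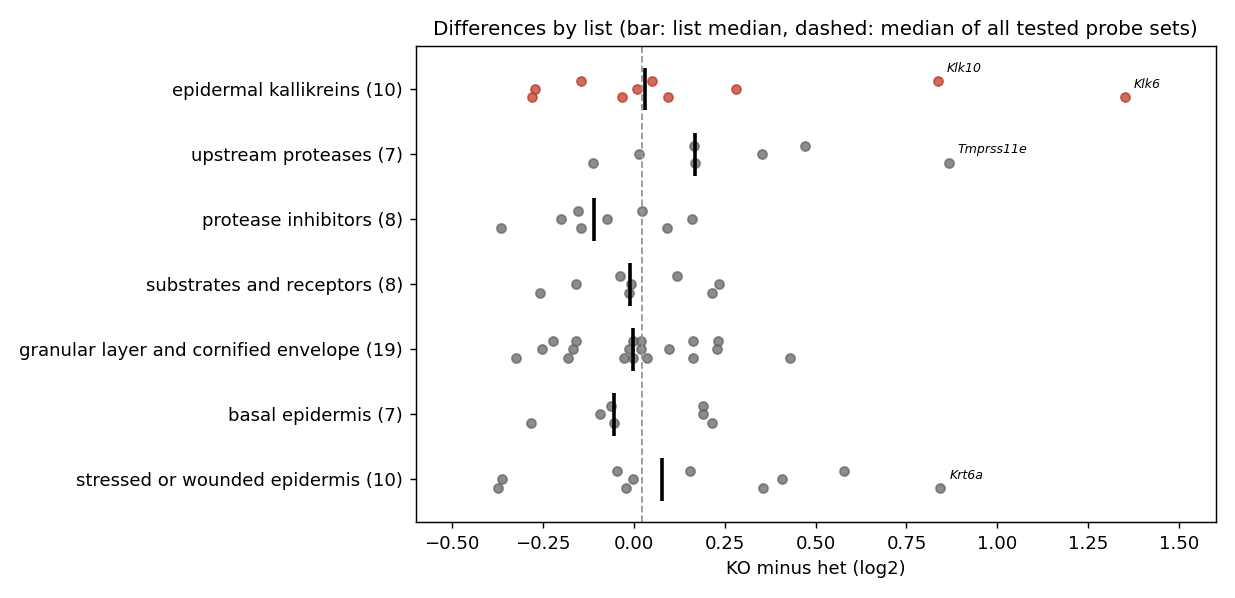
Difference of every tested gene (log2, KO minus het) in the epidermal kallikreins, 3 lists of genes that act with them and 3 lists of epidermal markers, with the number tested after each name. Black bars are list medians, the dashed line is the median of all tested probe sets at 0.02, and named points had a limma adjusted p under 0.05. Most points lie near the dashed line, with Klk6, Klk10, Tmprss11e and Krt6a to its right.

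Because kallikreins are made in the upper epidermis, markers of the epidermal layers were read in the same arrays. Of 19 tested genes of the granular layer and cornified envelope, 9 had a higher and 10 a lower mean in KO, with a median of -0.0017 and 0 passing. Their mean log2 value was 11.40 and 11.35 in the KO arrays, against 11.45 and 11.30 in the het arrays. Lor, which encodes loricrin, read 12.66 and 12.49 in KO, against 12.46 and 12.37 in het, and Krt10 read 13.44 and 13.30 in KO, against 13.46 and 13.29 in het. The largest shifts in that list were those of Elovl4, an elongase of very long-chain fatty acids (0.43, limma SE 0.14), Alox12b, a lipoxygenase of the barrier (-0.32, limma SE 0.12), and Cers3, a ceramide synthase (-0.25, limma SE 0.11), and none passed. Of 7 basal markers, 3 were higher and 4 lower, with a median of -0.06. Among these Krt5 differed by 0.19 (limma SE 0.19), Krt15 by 0.22 (limma SE 0.15) and Itga6 by -0.28 (limma SE 0.13), and none passed.

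Of 10 tested markers of stressed or wounded epidermis 1 passed, where 1.98% of all tested probe sets did. Krt6a, a keratin of the hair follicle companion layer and of wounded epidermis, rose (limma adjusted p = 0.0122 over all tested probe sets). It read 9.37 and 9.15 in KO, against 8.46 and 8.37 in het, a difference of 0.84 (limma SE 0.12, n = 2 per genotype). Over 15 other settings its limma adjusted p ran from 0.00104 to 0.266, and 3 were over 0.05, among them that without KO replicate 1 (0.0745). Krt16, its usual partner, differed by 0.58 (limma SE 0.16) and Krt6b by 0.41 (limma SE 0.16), without passing. Krt6a and Krt6b are near-identical genes whose probes may share signal. In the list as a whole 5 of 10 tested members had a higher and 5 a lower mean, with a median of 0.08. Among the lower ones were Il1b (-0.37, limma SE 0.18) and Sprr2d (-0.36, limma SE 0.17). Both had their KO arrays below the het range, without passing. S100a8, a calcium-binding protein of inflamed skin, did not pass the filter on low values and read 6.33 and 5.95 in KO, against 5.85 and 5.72 in het. Defb4, also under that filter, went the other way, with 4.65 and 4.97 in KO, against 5.19 and 5.52 in het. The part of these genes in the differences of Klk6 and Klk10 was not tested.

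Markers of other tissues were read in the same arrays. Mean levels were higher in KO for 9 of 9 tested sebocyte genes (median 0.59) and 8 of 8 skeletal muscle genes (median 0.52), where 54.2% of all tested probe sets were higher. In each of these lists 2 genes passed, where 1.98% of all tested probe sets did. Medians were 0.14 for 6 genes of the upper hair follicle, 0.07 for 6 of fibroblasts, 0.15 for 6 of adipocytes and -0.13 for 7 of macrophages, with 0 passing. The sebocyte genes averaged 11.75 and 11.72 in the KO arrays, against 11.42 and 10.99 in the het arrays. Their part in the differences of Klk6 and Klk10 was not tested. Arntl, read as a check of the labels, was lower in both KO arrays (8.29 and 8.16) than in both het arrays (8.90 and 9.08). Its probe set may include probes outside the deleted part.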

How the data were processed

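The authors deposited 1 table of 35557 probe sets in 4 arrays. Its values came from PLIER 2.0 and Affymetrix Expression Console 1.1.1, per the submitters' processing notes. They were taken as log2 from the deposited range (2.54 to 14.9), since neither the scale nor a normalization between arrays is given in the sources used here. Array quartiles differed by up to 0.34, so the arrays were quantile normalized. Symbols were taken from probe sets paired with 1 gene and updated through gene identifiers (21698 matched), and 16341 probe sets with a mean above the 25th percentile (6.67) were tested. KO was compared with het by limma 3.58.1 under R 4.3.3, with eBayes trended on mean level, Benjamini-Hochberg adjustment over all of them, a threshold of 0.05 and 2 residual degrees of freedom. The SEs are limma's moderated ones. The fit was run on simulated data drawn from its own fitted variances. Such data obey the model, so the run checks the code and not the calls made here. A whole-transcript probe set averages its probes, so a change in 1 exon may be missed, signal near background compresses differences, and arrays give no read depth. Levels of different probe sets are not compared.

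The members and gene lists were chosen with earlier results of these data known. Named are all members, the members of each protease or epidermal list that passed or had the smallest p, with its defining genes, and the 5 genes nearest to Klk5, Klk6 and Klk7. Plau, Plat, Il1b, Sprr2d and Defb4 were chosen after their values were seen. Serpina12 falls outside these rules. The lists for other tissues are given as counts, medians and array means, and of the clock list Arntl is named. Of 19 tested clock probe sets 9 had a higher and 10 a lower mean in KO. Among them 2 of the higher and 2 of the lower passed, where 1.98% of all tested probe sets did. The other settings were median centring, deposited values, no filter or one at the 50th percentile, no trend, a robust prior, an offset of 32, 1 probe set per gene, the replicate number as a block and each array left out. The fits with several-gene probe sets and with all probe sets were added after the data were seen.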

Additional observations from a re-analysis of the deposited data

How the results depend on the processing

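The signs of the differences of Klk5, Klk6, Klk9, Klk10, Klk12 and Klk14 were the same in all 15 other settings. Those of Klk7, Klk11 and Klk13 turned in 2 settings each and that of Klk8 in 3. Klk6 had an adjusted p under 0.05 in 13 of 15 settings and Klk10 in 12 of 15. The count of kallikreins under 0.05 was 0 when several-gene probe sets entered the fit and 0 with all probe sets, and 1 to 2 with single arrays left out. Over the whole array, 323 probe sets were called. The limma count was 913 after median centring, 544 with deposited values, 145 without a filter, 1235 with a replicate block on the labels' numbers, and 77 (without KO replicate 1) to 986 (without het replicate 1) with single arrays left out. It was 0 of 17557 with several-gene probe sets and 0 of 26667 with all probe sets, with 2713 and 3423 at an unadjusted p under 0.05, and limma's prior degrees of freedom were 4.12 and 2.82 there, against 7.73. The labels do not say that the number marks a shared litter. Deviations of same-numbered arrays from their group means correlated at 0.17 over 16341 probe sets. With the block, 2 kallikreins were called, as without it. The median kallikrein difference ran from -0.054 (without het replicate 2) to 0.19 (without het replicate 1). Median centring moved the median of all tested probe sets to 0.10.

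Among genes of the other lists that had not passed, signs turned after median centring for Serpina12 (0.0031), Cdsn (0.085) and Krt10 (0.088), and with deposited values for Cdsn (0.049) and Krt10 (0.052). With single arrays left out, Klk4 ran from -0.29 to 0.11, Krt5 from -0.12 to 0.50, Cdsn from -0.17 to 0.15 and Krt10 from -0.089 to 0.082. Tmprss11e and Krt6a had limma adjusted p = 0.0981 and 0.0949 with several-gene probe sets, and 0.266 each with all probe sets. Elovl4 passed after median centring (0.0405) and without het replicate 1 (0.0170), Krt5 without het replicate 1 (0.0490), and Krt6b (0.0472) and Krt16 (0.0178) with the replicate block, all as limma adjusted p. The cause of these changes was not tested. Signal over background could not be set for single probe sets, since the table holds no detection call.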
